A study of Mus musculus with 12 samples.

Results

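The immediate early genes examined were Fos, Fosb, Jun, Junb, Egr1, Egr2, Atf3, Ier2, Dusp1 and Nr4a1. Every probe set of the Affymetrix MOE430 2.0 array whose only symbol in the platform annotation was one of these 10 names was taken, which gave 12 probe sets for the 10 genes out of 45037 probe sets tested and 18193 genes with a single symbol. Jun has 2 probe sets, 1417409_at and 1448694_at, here called the first and the second, and Egr2 has 1427682_a_at and 1427683_at, called in the same way. The pancreata of 12 mouse embryos were each hybridized to 1 array, and each of the days studied, E14.5 and E16.5, has 2 wildtype and 4 β-catenin KO pancreata. KO embryos were Pdx1Cre/+; beta-cateninflox/flox, in which Cre under the Pdx1 promoter removes the part of the β-catenin gene that lies between LoxP sites in its introns 2 and 6. Cells of other lineages in the whole KO pancreata keep β-catenin, and the study considered it probable that Cre acted in only part of the epithelium. The embryos came from crosses among Pdx1Cre/+; beta-cateninflox/+ mice, and what Cre or flox alleles the wildtype embryos carried is not stated. Ctnnb1, the gene deleted, has 3 probe sets that were not placed against the deleted exons, and their KO means lay between 0.678 and 1.21 of wildtype with none past the test (limma adjusted p = 0.152 to 0.920).

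Immediate early genes are transcribed within minutes of a signal that reaches the cell, from transcription factors that are already present and without the need for new protein. Growth factors acting through the MAP kinase cascade, calcium and cyclic AMP, and stress all induce them, and the handling of tissue can do so as well. Most of their products are transcription factors that act on a later wave of genes, and others, such as the phosphatase Dusp1, shut the signal off again. Their transcripts are short lived, so a measured level reports the recent past of the tissue.

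Each deposited value is the linear ratio of a pancreas to the mean of the wildtype pancreata of its day, so 1 is the wildtype mean. The ratios hold no abundance, the genes cannot be ranked by level, and the course of a gene from E14.5 to E16.5 cannot be read. In whole pancreas a higher ratio may come from more cells of a type that expresses the gene or from more RNA per cell, and these cannot be told apart. The contrast of KO with wildtype was made in limma on log2 ratios, at a limit of 0.05 on p values adjusted across the 45037 probe sets, and 1 pancreas counted as 1 replicate. The wildtype group of each day holds 2 pancreata, which by construction lie equally far above and below 1.

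The promoters of Egr2, Jun and Dusp1, which were among the genes with the largest log2 fold changes at E16.5, and of Fos, the archetype of the class, are shown because the class is known for the response elements in its promoters. The windows run from 250 bases before to 50 bases after the transcription start in RefSeq on GRCm38.p6, 5′ to 3′ on the strand of the gene. Of the 10 genes 8 have such a window, and Egr1 and Ier2 have none. Elements farther from the start were not searched for. Capitals mark matches on either strand to the CArG box, which binds serum response factor, to the CRE core TGACGT, which is part of the full cyclic AMP response element TGACGTCA, and to TGACATCA, a variant bound by AP-1 and ATF dimers.
Egr2, chr10:67537680-67537979, plus strand: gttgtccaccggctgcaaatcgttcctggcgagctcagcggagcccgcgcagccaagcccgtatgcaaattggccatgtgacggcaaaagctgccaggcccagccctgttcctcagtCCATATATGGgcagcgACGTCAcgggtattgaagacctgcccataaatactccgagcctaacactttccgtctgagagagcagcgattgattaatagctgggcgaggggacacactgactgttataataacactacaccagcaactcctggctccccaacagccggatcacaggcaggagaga
Dusp1, chr17:26508423-26508722, minus strand: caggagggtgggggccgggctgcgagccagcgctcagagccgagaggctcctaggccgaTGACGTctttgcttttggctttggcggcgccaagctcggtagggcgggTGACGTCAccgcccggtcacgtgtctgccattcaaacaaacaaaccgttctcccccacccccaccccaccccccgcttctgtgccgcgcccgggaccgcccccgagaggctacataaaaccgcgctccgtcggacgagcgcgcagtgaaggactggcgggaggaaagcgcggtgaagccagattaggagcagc
Jun, chr4:95052173-95052472, minus strand: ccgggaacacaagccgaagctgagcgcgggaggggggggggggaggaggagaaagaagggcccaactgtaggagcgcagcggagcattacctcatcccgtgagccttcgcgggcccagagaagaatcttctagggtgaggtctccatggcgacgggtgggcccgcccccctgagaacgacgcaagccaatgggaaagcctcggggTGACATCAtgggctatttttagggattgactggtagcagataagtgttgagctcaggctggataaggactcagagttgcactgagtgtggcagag
Fos, chr12:85473640-85473939, plus strand: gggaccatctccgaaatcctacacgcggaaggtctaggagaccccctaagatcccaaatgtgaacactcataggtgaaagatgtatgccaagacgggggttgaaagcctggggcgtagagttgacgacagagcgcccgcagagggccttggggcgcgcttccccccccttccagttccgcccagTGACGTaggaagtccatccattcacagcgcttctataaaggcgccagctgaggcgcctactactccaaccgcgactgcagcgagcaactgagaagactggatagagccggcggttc

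In the Egr2 window a CArG box starts at position -133 and a CRE core at position -117, counted from the start of transcription. The Dusp1 window holds the full CRE at position -143 and a second CRE core at position -191. The Jun window holds TGACATCA at position -45, and the Fos window a CRE core at position -66. Among the 8 genes with a window, the CRE core was present in 4 (Atf3, Egr2, Fos and Dusp1), against 7.51% of all 32851 windows of this length. The full CRE was present in 1 (Dusp1, 1.79% of all windows), the CArG box in 1 (Egr2, 1.63%) and TGACATCA in 1 (Jun, 3.62%). The AP-1 site TGANTCA was found in none of the 8 windows (7.81% of all), the Egr site GCGNGGGCG in Fosb and Nr4a1 (5.55%), and CTTTGA, the core of the sites bound by the Tcf/Lef partners of β-catenin, in Junb alone (16% of all). A match of this kind is a string of letters and says nothing on whether a factor was bound in these pancreata. The lack of a match holds for the window alone, and the gene may have the element elsewhere.

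**Figure D1:**
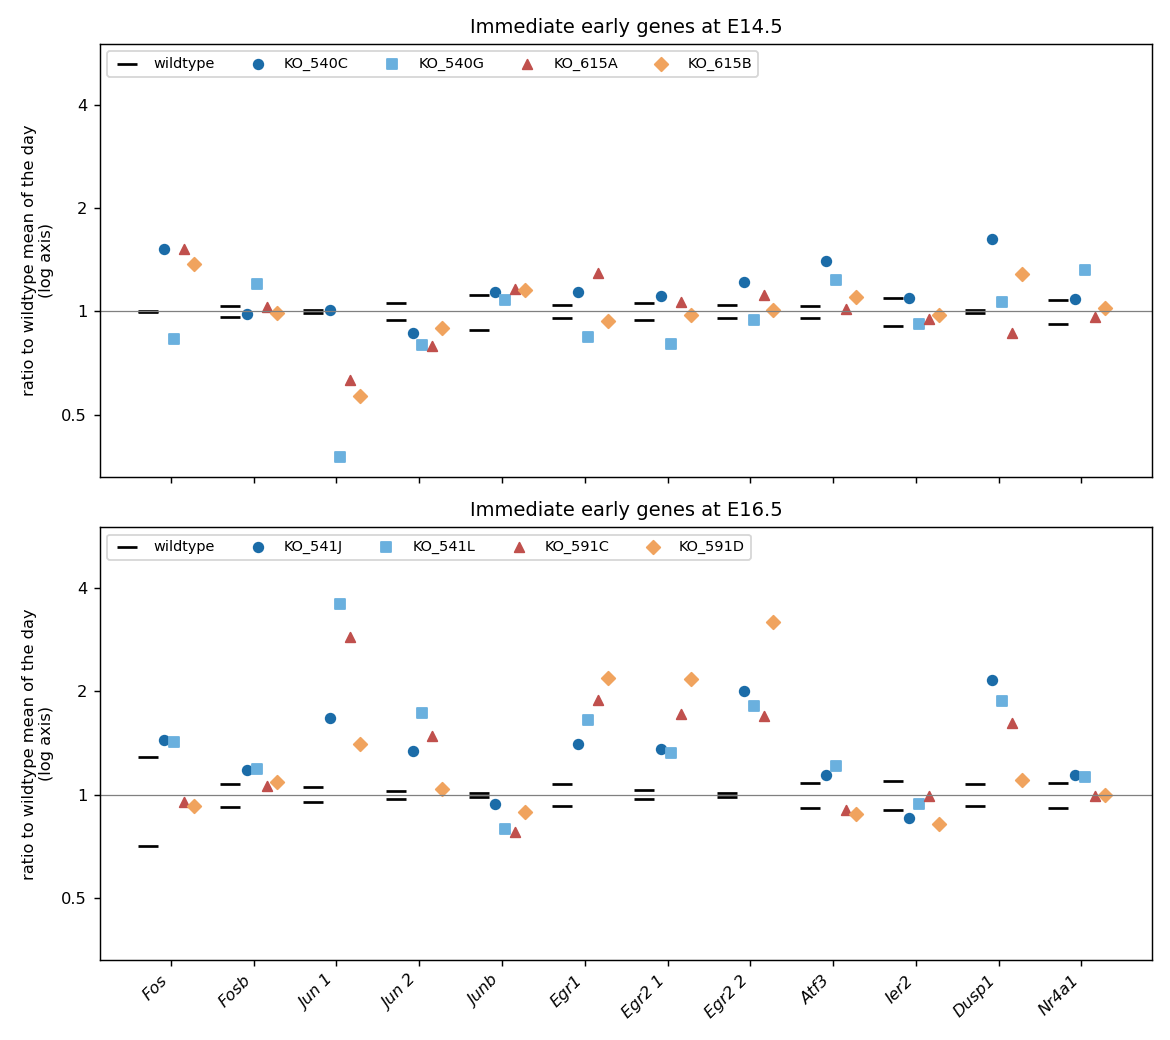
Ratio to the wildtype mean of the day (log axis) for each of the 12 probe sets, with E14.5 above and E16.5 below. Black bars are the 2 wildtype pancreata and each symbol is 1 KO pancreas. At E16.5 all 4 KO pancreata lay above both wildtype pancreata for Jun, Egr1, Egr2 and Dusp1.

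At E14.5 none of the 12 probe sets passed the limma test, where 0.0111% of all probe sets did, and none reached an unadjusted p under 0.05, where 6.86% of all did. At E16.5 the zinc finger transcription factors Egr1 and Egr2 rose, Egr2 on its second probe set. These were 2 of 12 probe sets, against 2.62% of all probe sets called in either direction and 0.802% called upward. At an unadjusted p under 0.05, 6 of 12 probe sets, on 4 of the 10 genes, were higher in the KO at E16.5. These were the 2 of Jun, Egr1, the 2 of Egr2 and Dusp1, against 8.48% of all probe sets. The same 6 had all 4 KO pancreata above both wildtype pancreata, against 14.5% of all probe sets, and Junb alone had all 4 below both, against 11.1%. At E14.5 no probe set had all 4 KO pancreata above both wildtype (8.17% of all), and the second Jun probe set alone had all 4 below (8.06% of all). The log2 fold change, KO minus wildtype, was above 0 for 8 of 12 probe sets on the earlier day and 10 of 12 on the later, against 55.4% and 56.1% of all probe sets, and its median was 0.08 for E14.5 and 0.37 for E16.5, against 0.02 and 0.03 over all. With 1 probe set per gene the medians were 0.11 and 0.23.

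Egr1 and Egr2 encode related transcription factors that bind GC-rich DNA and are read as a sign of MAP kinase activity. At E16.5 the wildtype pancreata were at 0.927 and 1.07 of their mean for Egr1, and the KO pancreata at 1.41 (KO_541J), 1.65 (KO_541L), 1.89 (KO_591C) and 2.19 (KO_591D). Every KO value lay above both wildtype values, and the lowest KO value was farther from the higher wildtype value than the wildtype values were from each other. The KO mean was 1.782 ± 0.3325 (SD, n = 4), a log2 fold change of 0.82 with a standard error of 0.192 (limma adjusted p = 0.0474). The second Egr2 probe set was at 0.987 and 1.01 in the wildtype pancreata of E16.5 and at 2.01 (KO_541J), 1.82 (KO_541L), 1.69 (KO_591C) and 3.18 (KO_591D) in the KO. Here too the groups did not overlap, and KO_591D stood highest. The mean was 2.17 ± 0.683 (SD, n = 4), a log2 fold change of 1.07 ± 0.209 (SE), with a limma adjusted p of 0.0238. The first Egr2 probe set gave a value of the same sign without passing the test: 1.03 and 0.969 in wildtype, 1.36, 1.32, 1.72 and 2.16 in the KO pancreata in the same order, a mean of 1.64 ± 0.392 and a log2 fold change of 0.69 ± 0.190 (SE, limma adjusted p = 0.0830). On Egr1 and on both Egr2 probe sets the highest of the 4 KO pancreata was KO_591D. In KO_591D the log2 ratios of all probe sets also had the highest median of these 4 pancreata, 0.060 against -0.006 to 0.004 in the others. Their interquartile range was the widest as well, 0.335 against 0.284 to 0.318.

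The calls on both genes were lost when certain single pancreata were left out. The Egr1 call was lost without KO_541L or KO_591C of E16.5 (limma adjusted p = 0.0911 and 0.0946). It was also lost without KO_540C or KO_615B of E14.5 (0.0601 and 0.0661). These E14.5 pancreata do not enter the E16.5 contrast, and the log2 fold change stayed at 0.82. Only the estimate of spread, shared by both days, and the adjustment moved. Leaving out any 1 wildtype pancreas lost the Egr1 call as well, but leaves 1 in its group. The log2 fold change was then 0.71 without WT_622A, 0.92 without WT_628G and 0.82 without WT_522B or WT_522C. The Egr2 call was lost without WT_622A, WT_628G or KO_541J, all of E16.5. When each day was fitted on its own 6 arrays, neither passed (limma adjusted p = 0.110 for Egr1 and 0.118 for Egr2). The log2 fold changes stayed between 0.71 and 0.93 for Egr1 and between 0.88 and 1.18 for Egr2 over all alternatives fitted on log2 values.

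At E14.5 neither Egr gene differed beyond the spread of the pancreata. The wildtype pancreata were at 0.959 and 1.04 for Egr1, and the KO pancreata at 1.14 (KO_540C), 0.840 (KO_540G), 1.30 (KO_615A) and 0.937 (KO_615B), with 2 above and 2 below both wildtype values. The second Egr2 probe set lay between 0.943 and 1.22 in the KO and the first between 0.807 and 1.11, and on all 3 probe sets the lowest KO pancreas was KO_540G. The log2 fold changes were 0.06 ± 0.192 for Egr1, -0.02 ± 0.190 for the first and 0.09 ± 0.209 for the second Egr2 probe set (SE, limma adjusted p = 0.977 to 0.994).

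Jun encodes the main Jun subunit of AP-1, the dimeric transcription factor that pairs Jun with Fos or ATF proteins. Its first probe set had the highest ratio of the highest to the lowest KO value among the 12 on both days, with 2.67 on the earlier and 2.55 on the later. At E14.5 the wildtype pancreata were at 0.987 and 1.01 and the KO pancreata at 1.01 (KO_540C), 0.377 (KO_540G), 0.633 (KO_615A) and 0.568 (KO_615B), so that 3 lay below both wildtype values and 1 between them. At E16.5 the wildtype pancreata were at 1.05 and 0.950 and the KO pancreata at 1.67 (KO_541J), 3.59 (KO_541L), 2.89 (KO_591C) and 1.41 (KO_591D). All 4 lay above wildtype, but differed widely among themselves. The KO mean was 0.647 ± 0.264 on the earlier day and 2.39 ± 1.03 on the later (SD, n = 4). The log2 fold changes were -0.72 and 1.15, each with a standard error of 0.388, and neither passed (limma adjusted p = 0.784 and 0.149). The second Jun probe set gave smaller values in the same directions. At E14.5 its KO pancreata were at 0.864, 0.797, 0.792 and 0.893 in the order above against 0.944 and 1.06 in wildtype, and at E16.5 at 1.34, 1.73, 1.48 and 1.04 against 1.02 and 0.975. Every KO value lay below wildtype on the first day and above it on the second, with KO_591D at E16.5 only just above the higher wildtype value. Its log2 fold changes were -0.26 and 0.46 (SE 0.163, limma adjusted p = 0.842 and 0.172). Both Jun probe sets were highest in KO_541L and lowest in KO_591D among the E16.5 KO pancreata, a different order from that of the Egr genes.

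Junb encodes a Jun protein that is a weaker activator and can hold Jun back. Its KO mean lay on the other side of wildtype from that of Jun at both days, within a narrower range. At E14.5 its KO pancreata were at 1.14, 1.08, 1.16 and 1.15 against 1.12 and 0.883 in wildtype, and at E16.5 at 0.942, 0.797, 0.777 and 0.890 against 0.987 and 1.01. The 4 KO pancreata of E14.5 overlapped the wider wildtype pair, and those of E16.5 all lay below both wildtype pancreata. The log2 fold changes were 0.19 and -0.24 (SE 0.114), and neither passed (limma adjusted p = 0.825 and 0.333).

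Fos, the partner of Jun in the classical AP-1 dimer, overlapped wildtype at E16.5. There the wildtype pancreata differed more from each other than for any other of the 12 probe sets, at 0.708 and 1.29, and the KO pancreata were at 1.44 (KO_541J), 1.43 (KO_541L), 0.951 (KO_591C) and 0.926 (KO_591D). The KO pancreata thus fell into a pair above wildtype and a pair within it. At E14.5 Fos was at 1.52 (KO_540C), 0.832 (KO_540G), 1.52 (KO_615A) and 1.37 (KO_615B), with both wildtype pancreata at 1.0. The log2 fold changes of the earlier and the later day were 0.35 and 0.28 (SE 0.295, limma adjusted p = 0.909 and 0.734). Fosb, a second Fos protein, stayed between 0.986 and 1.20 in all 8 KO pancreata, with log2 fold changes of 0.07 and 0.18 (SE 0.111, limma adjusted p = 0.966 and 0.489).

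Atf3 encodes a stress-induced bZIP repressor that also pairs with Jun. Its KO pancreata were at 1.40, 1.23, 1.02 and 1.10 at E14.5, with wildtype at 0.960 and 1.04, and at 1.15, 1.21, 0.902 and 0.879 at E16.5, with wildtype at 0.915 and 1.08. At E16.5 the KO values lay on both sides of the wildtype pair, and the log2 fold changes of 0.24 and 0.04 (SE 0.162) did not pass (limma adjusted p = 0.858 and 0.952). Nr4a1, an orphan nuclear receptor induced by growth factors and cyclic AMP, ranged in the KO from 0.964 to 1.32 on the earlier day and from 0.992 to 1.14 on the later (limma adjusted p = 0.937 and 0.832). Ier2, a nuclear protein of the early response, ranged from 0.921 to 1.09 and from 0.820 to 0.993 (limma adjusted p = 0.993 and 0.654).

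Dusp1 encodes the phosphatase that removes phosphate from JNK, p38 and ERK and so ends the MAP kinase signal. At E16.5 its wildtype pancreata were at 0.927 and 1.07 and the KO pancreata at 2.16 (KO_541J), 1.88 (KO_541L), 1.61 (KO_591C) and 1.11 (KO_591D). The groups did not overlap, but KO_591D lay close to the higher wildtype value. The KO mean was 1.69 ± 0.4495 (SD, n = 4) and the log2 fold change of 0.72 ± 0.264 (SE) did not pass (limma adjusted p = 0.186). At E14.5 the KO pancreata were at 1.62, 1.07, 0.865 and 1.29, on both sides of the wildtype values of 1.01 and 0.989, with a log2 fold change of 0.24 (limma adjusted p = 0.943). Without KO_591D, the E16.5 changes of Dusp1 and of the second Jun probe set passed beside those of Egr1 and Egr2, at log2 fold changes of 0.91 (limma adjusted p = 0.0388) and 0.59 (0.0181). The E16.5 calls over all 45037 probe sets then rose from 1182 to 2862, and the upward calls from 361 to 1572. When the arrays were quantile normalized or centred on their medians, Dusp1 and the second Jun probe set no longer had all 4 KO pancreata above wildtype. This left 4 of 12 probe sets, a choice made after the data were seen. The share of all probe sets was not computed under these scalings, and the 14.5% given above is for the values as deposited.

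**Figure D2:**
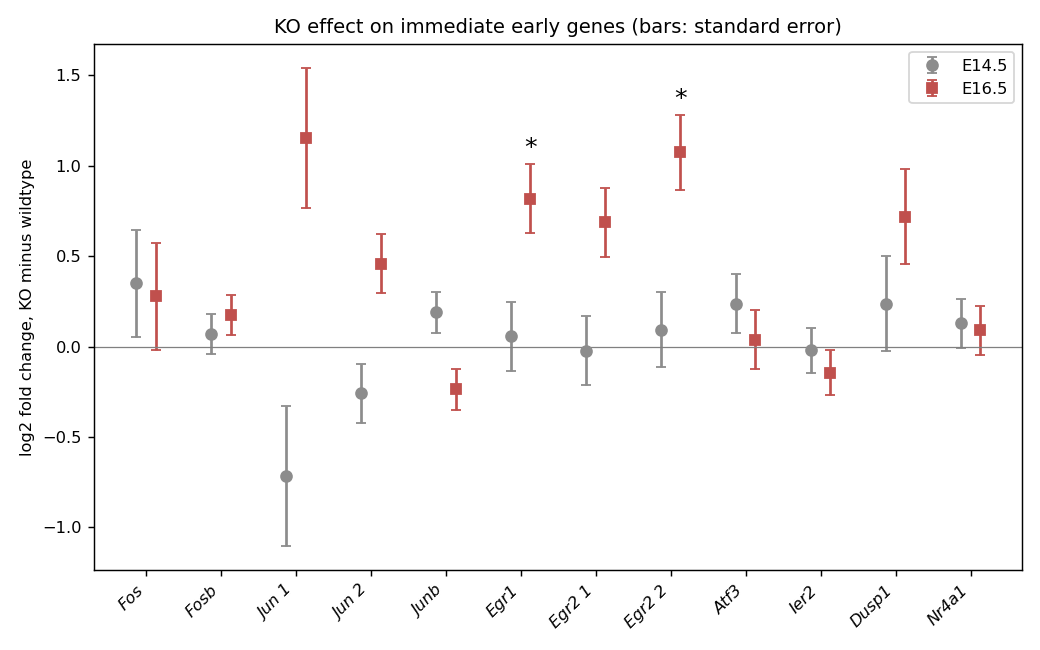
Log2 fold change, KO minus wildtype of the same day, for the 12 probe sets at E14.5 (grey) and E16.5 (red), with bars of 1 standard error from the limma fit. Asterisks mark Egr1 and the second Egr2 probe set at E16.5, with limma adjusted p of 0.0474 and 0.0238.

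The KO effect at E16.5 was then compared with that at E14.5 in the same fit. None of the 12 probe sets passed (limma adjusted p = 0.222 to 0.984), where 0.349% of all probe sets did. At an unadjusted p under 0.05, 5 of the 12 were higher at E16.5 and 1 was lower, against 5.32% and 5.04% of all probe sets. The difference of the log2 fold changes was 1.87 ± 0.548 (SE) for the first Jun probe set, 0.98 ± 0.295 for the second Egr2 probe set, 0.76 ± 0.271 for Egr1 and 0.72 ± 0.231 for the second Jun probe set. The first Egr2 probe set followed at 0.71 ± 0.268, and Junb was the one in the other direction, at -0.43 ± 0.161. For Fos, Fosb, Atf3, Ier2, Nr4a1 and Dusp1 the difference lay between -0.20 and 0.48. Egr1 and Egr2 were therefore called at E16.5 and not at E14.5 without their effects being shown to differ between the days. Without KO_591D the second Jun probe set alone passed, with a difference of 0.85 (limma adjusted p = 0.0460). The calls for the difference over all probe sets then rose from 157 to 408.

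The members did not move together across the KO pancreata. At E16.5 the highest of the 4 KO values was in KO_541J for 4 probe sets, in KO_541L for 4, in KO_591D for 3 and in KO_591C for 1, and the lowest was in KO_591D for 6 and in KO_591C for 4. Fos, Fosb, Atf3, Dusp1 and Nr4a1 were higher in both KO_541J and KO_541L than in both KO_591C and KO_591D, which was 5 of 12 probe sets against 17% of all. Egr1 and the first Egr2 probe set were lower in both, which was 2 of 12 against 25.5%. What the number shared by the names of a pair marks is not stated. At E14.5 the lowest KO value was in KO_540G for 7 of 12 probe sets, and in KO_540G the log2 ratios of all probe sets were also spread most widely, their interquartile range being 0.414 where the other KO pancreata of that day had 0.199 to 0.278. Atf3 and Nr4a1 were higher in both KO_540C and KO_540G than in both KO_615A and KO_615B (11.2% of all probe sets), and Junb was lower (8.73%).

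Markers of cell types also differed between the KO pancreata of E16.5. The median log2 ratio of 7 acinar markers was -1.79 in KO_541J, -2.84 in KO_541L, -1.12 in KO_591C and -0.74 in KO_591D, against -0.01 and 0.01 in wildtype, with 6 of 7 lower by log2 fold change. For 7 markers of epithelium and duct it was -1.08, -0.94, -0.44 and -0.37 against 0.33 and -0.43 in wildtype, with 7 of 7 lower. Of the 8 other marker lists, those of mesenchyme, leukocytes, endothelium, neuron and glia, and liver had a median above 0 in all 4 KO pancreata. The median of 7 mesenchyme markers was 0.59, 1.20, 0.11 and 0.20 in the same order (wildtype -0.05 to 0.04, 7 of 7 higher), that of 8 leukocyte markers 0.63, 0.73, 0.20 and 0.01 (wildtype -0.03 to 0.03, 5 of 8 higher), and that of 6 endothelium markers 0.11, 0.32, 0.18 and 0.05 (6 of 6 higher). For 5 liver markers it was 0.13, 0.11, 0.21 and 0.53 (wildtype 0.04 and -0.04, 3 of 5 higher) and for 4 markers of neuron and glia 0.38, 0.24, 0.29 and 0.22 (wildtype 0.15 and -0.17, 3 of 4 higher). The other 3 lists had KO values on both sides of 0, from -0.17 to 1.03 for 6 endocrine markers (6 of 6 higher by log2 fold change), from -0.12 to 0.03 for 5 erythroid markers and from -0.54 to 0.08 for 5 skeletal muscle markers. Single markers past the test were Col3a1 of mesenchyme, Csf1r of leukocytes and Elavl4 of neurons, which rose, and Cel and Rbpjl of acini and C1qa of leukocytes, which fell (limma adjusted p = 0.00532 to 0.0488). The median over the 10 immediate early genes, 1 probe set each, was 0.37, 0.39, 0.04 and 0.06. Mesenchyme, leukocyte and immediate early gene medians were thus all higher in KO_541J and KO_541L than in KO_591C and KO_591D, while Egr1, the first Egr2 probe set and the liver median were lower there. The liver median, Egr1 and both Egr2 probe sets were highest in KO_591D. Since the values are ratios, whether any marker was near absence cannot be read. The part of cell composition in the changes of Egr1, Egr2, Jun and Dusp1 was not tested. At E14.5 the acinar median ranged from -1.59 to 0.42 over the 4 KO pancreata and the mesenchyme median from 0.14 to 0.47.

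**Figure D3:**
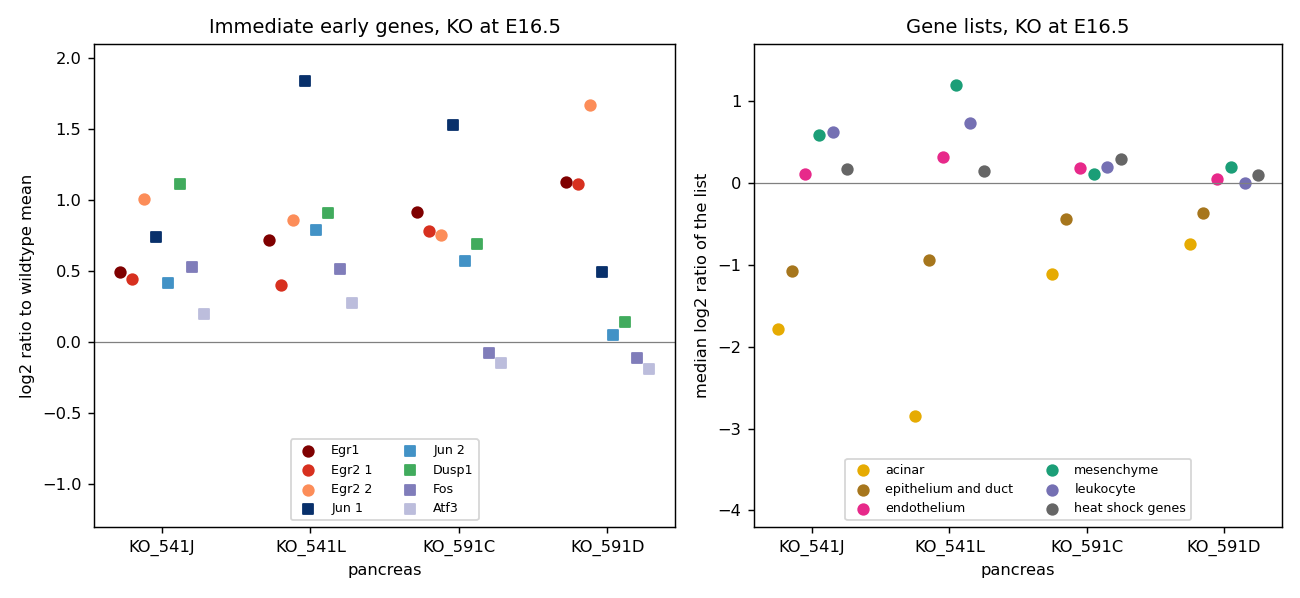
Left, log2 ratio to the wildtype mean for 8 probe sets in each KO pancreas of E16.5. Right, median log2 ratio of 5 cell type marker lists and of the heat shock genes in the same pancreata. Egr1 was highest in KO_591D, Dusp1 and Fos in KO_541J, and Jun and the mesenchyme median in KO_541L.

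Genes around the early response were grouped by role, with 1 probe set per gene. Of 12 other AP-1 and ATF bZIP genes none was called at either day, and the median log2 fold change was 0.05 for E14.5 and 0.07 for E16.5. On the chosen probe sets the largest change at E14.5 was in Mafg (log2 fold change 0.20, limma adjusted p = 0.843). For E16.5 it was in Maff, a small Maf protein without an activation domain. Maff was at 0.607 ± 0.0128 of wildtype (SD, n = 4), a log2 fold change of -0.68 (limma adjusted p = 0.0742). All 4 KO pancreata lay below both wildtype. A further probe set of Jdp2 moved more, with 0.52 for the earlier day and 0.78 for the later (limma adjusted p = 0.745 and 0.138). On the earlier day further probe sets of Jund and Atf4 also exceeded Mafg in size, with 0.47 and -0.46 (limma adjusted p = 0.677 and 0.838). Of 16 other early response transcription factors Nfil3, a bZIP repressor, fell at E16.5, to 0.641 ± 0.0520 (log2 fold change -0.63 ± 0.121, limma adjusted p = 0.0229), where 1.82% of all probe sets were called downward. This call was lost in 8 of 21 alternatives, among them leaving out WT_622A, KO_541J or KO_541L (limma adjusted p = 0.0615 to 0.168). Klf4, a zinc finger factor of epithelia, was at 1.83 ± 0.460 on the earlier and 2.16 ± 0.818 on the later day, and did not pass (limma adjusted p = 0.726 and 0.173), and its other probe set gave log2 fold changes of 0.80 and 0.26. The median of these 16 genes was 0.04 for E14.5 and 0.08 for E16.5.

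Of 25 other early response genes, among them those of phosphatases, secreted matrix proteins and signaling inhibitors, none was called at either day, with 18 of 25 above wildtype at E16.5 and a median of 0.13. Phlda1, which encodes a pleckstrin homology domain protein induced by growth factors, showed the largest change on the chosen probe sets. It was at 0.659 ± 0.202 on the earlier and 0.469 ± 0.0614 on the later day (limma adjusted p = 0.677 and 0.0543). Its 4 KO pancreata lay below both wildtype pancreata at both days. At E14.5 a further probe set of Ier5 gave a larger log2 fold change, 1.11 (limma adjusted p = 0.0773), against 0.54 on the chosen one. Of 24 upstream kinases, factors and corepressors 20 had a probe set that names no other gene, and none of these was called, with a median of 0.04 at both days. The largest change in this group on the chosen probe sets was in Nab1, a corepressor that binds the Egr proteins. It was at 0.707 ± 0.194 at E14.5 and 0.765 ± 0.124 on the later day (limma adjusted p = 0.712 and 0.503). On the earlier day its further probe sets lay nearer to wildtype, at 0.11 and -0.05 on the log2 scale, and on the later day at -0.40 and -0.002. At E16.5 further probe sets of Rps6ka3 and Elk3 gave larger log2 fold changes, each 0.48 (limma adjusted p = 0.213 and 0.287), against -0.37 on the chosen Nab1 probe set. At E14.5 unadjusted p values under 0.05 were found for 7 of 83 genes (8.43%) of these 4 lists and the heat shock list below, against 6.86% of all probe sets. At E16.5 they were found for 13 of 83 (15.7%), against 16.6% of all probe sets.

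Heat shock genes, which respond to protein damage, were examined as a second stress response. Of 10 measured, Dnajb1, a cochaperone of Hsp70, rose at E16.5, to 1.47 ± 0.143 of wildtype (log2 fold change 0.55 ± 0.124, limma adjusted p = 0.0416), which was 1 of 10 genes against 0.802% of all probe sets called upward. Its other probe set gave -0.31 (limma adjusted p = 0.306), and the call was lost in 14 of 21 alternatives. Among these were leaving out KO_541J, KO_541L or KO_591C of E16.5 (limma adjusted p = 0.0849 to 0.104). Leaving out KO_615A or KO_615B of E14.5 also lost it (0.0545 and 0.0576). The log2 fold change then stayed at 0.55, and only the estimate of spread, shared by both days, and the adjustment moved. Leaving out any 1 wildtype pancreas lost the Dnajb1 call too, but leaves 1 in its group. The log2 fold change was then 0.43 without WT_622A, 0.67 without WT_628G and 0.55 without WT_522B or WT_522C. The inducible Hsp70 gene Hspa1a was at 1.61 ± 0.430 on the earlier and 1.32 ± 0.181 on the later day (limma adjusted p = 0.626 and 0.422). The largest change of the list at E16.5 was in Hspa1b, a nearly identical Hsp70 gene whose signal may not be separable from that of Hspa1a, at 1.98 ± 0.812 of wildtype, with a log2 fold change of 0.87 ± 0.457 that did not pass (limma adjusted p = 0.381). The further probe sets of Hspa1b gave log2 fold changes of 1.45 and 1.27 (limma adjusted p = 0.0525 and 0.123). The list's median was 0.07 for E14.5 and 0.09 for E16.5, and its median in single KO pancreata of E16.5 lay between 0.10 and 0.29.

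**Figure D4:**
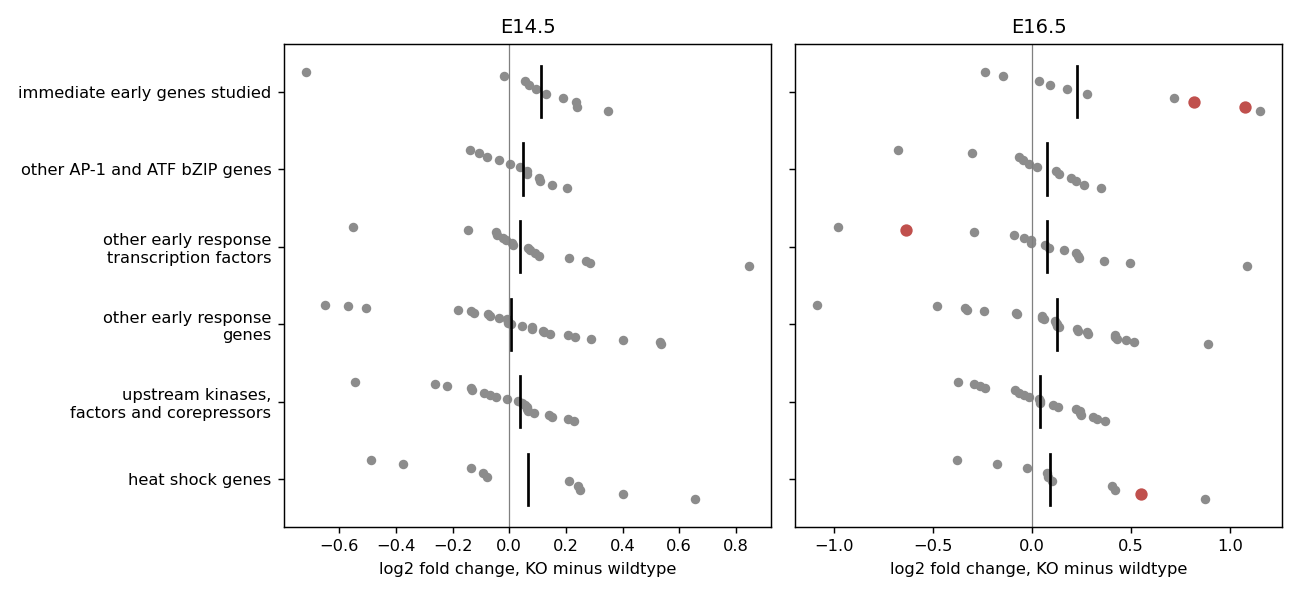
Log2 fold change, KO minus wildtype, for 1 probe set per gene in the 10 immediate early genes and 5 related lists, at E14.5 (left) and E16.5 (right). Points are genes, vertical bars are list medians, and red points passed the limma test: Egr1 and Egr2, Nfil3 and Dnajb1, all at E16.5.

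The genes whose pattern over the 12 pancreata was most like the median of the 10 immediate early genes were sought among all other genes with a single symbol. They were Gucy1a1 (Pearson r = 0.957 over 12 pancreata), a subunit of soluble guanylate cyclase, Nkd1 (0.940), an inhibitor of Wnt signaling, Dpysl3 (0.936), a cytoskeletal protein of neurons and mesenchyme, Icam1 (0.934), an adhesion molecule of endothelium and leukocytes, and Rab33a (0.924). The coefficients describe pancreata that share a day's wildtype mean and were picked as the highest of many. In the KO of E16.5 these genes were at 1.41 ± 0.289, 1.51 ± 0.454, 2.47 ± 1.31, 1.53 ± 0.283 and 2.16 ± 1.05 of wildtype (SD, n = 4), and none passed the test (limma adjusted p = 0.133 to 0.302).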

How the data were processed

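RNA of each pancreas was amplified in 2 rounds and hybridized to a MOE430 2.0 array. The authors ran RMA in GeneSpring and deposited each value as a linear ratio to the day's wildtype mean. For each probe set and day the 2 wildtype values total 2 within 3e-07, so a filter on dim probe sets could not be applied. Part of the deposited text gives the earlier day as E14.6. The number of arrays limits the precision.

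Of 45101 probe sets, 64 Affymetrix controls were set aside. Gene names came from the platform annotation, in which 34945 of the 45037 probe sets tested carry 1 symbol, 932 several and 9160 none. The 4 groups were fitted on log2 ratios with limma 3.58.1 (R 4.3.3), which left 8 residual degrees of freedom, and the fit was tested on simulated data. Wildtype and KO were contrasted at each day, with the difference of the contrasts between days. Benjamini-Hochberg adjustment ran over all probe sets, with a limit of 0.05. Separate embryos were the replicates, and whether embryos of a group shared a litter is not stated.

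Where 1 probe set stood for a gene it was chosen by name: _at first, then _a, _f or _g, then _s or _x, and the lowest number. Genes named were all members, every call in the other lists, the largest change of each related list at a day, and the 5 genes most like the members' median. The members and lists were chosen with earlier results of these data known. The alternatives tried were quantile normalization, median centring, linear ratios, a trended and robust variance, a fit of each day alone and array weights. Others were a random block (statmod 1.5.0) on the number in the array name and exclusion of probe sets ending in _s_at or _x_at. A t-test of equal variance, averaging the probe sets of a gene and leaving out each array were also tried. The t-test was run at each day over all 45037 probe sets. In the study a t-test followed a filter on the size of the change, so its procedure was not repeated here. Promoter windows are those of RefSeq on GRCm38.p6, and Egr2 has 5, of which the last listed was used. Plots were made in Python 3.11.15 with matplotlib 3.10.9.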

Additional observations from a re-analysis of the deposited data

Results flagged for a closer look

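Fos in KO_540G at E14.5 was at 0.832 of wildtype, apart from the other 3 KO pancreata of that day. The gap to its nearest neighbour was 0.83 of the range of the 4 values on the log2 scale, just past Dixon's critical value for 4 values, and 0.784 of it on linear ratios, which is not past it. Of 24 groups of 4 KO values examined on the log2 scale this was the single one past the limit, and 1 in 20, or 1.2 groups, would be by chance.

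On the second Jun probe set all 4 KO pancreata were below the wildtype mean at E14.5 and all 4 above it at E16.5, and on Junb all 4 were above it at E14.5 and below it at E16.5. The difference of the log2 fold changes, E16.5 minus E14.5, was 0.72 for Jun (limma adjusted p = 0.271) and -0.43 for Junb (limma adjusted p = 0.362), so neither difference passed.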

How the results depend on the processing

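Over all 45037 probe sets, 1182 were called at E16.5 in the main fit, 973 with median centring and 462 with linear ratios. A fit of each day alone called 159, a trended and robust variance 86, quantile normalization 71 and the t-test 0. Where so few probe sets are called, 0 of 12 says little on these genes. Of the 12 probe sets, 2 were called at E16.5 in the main fit. The number was 1 with arrays centred on their medians (Egr2). It was 0 under quantile normalization, linear ratios, a trended and robust variance, a fit of each day alone and the t-test without the study's filter. Leaving out 1 array gave between 0 (without WT_622A or WT_628G) and 4 (without KO_591D). Without KO_591D the E16.5 calls over all probe sets rose as well, to 2862. Array weights, the number in the array name as a random block (correlation -0.0876) and the exclusion of probe sets ending in _s_at or _x_at left the number called among the 12 at 2. An unadjusted p under 0.05 at E16.5, in either direction, was reached by 6 of the 12 in the main fit (7495 of all probe sets). It was reached by 4 under quantile normalization (2998 of all) and by 2 in the t-test (5539 of all). At E14.5 none was called under any of 21 alternatives. Leaving out 1 array gave 0 or 1 called for the difference between days. The second Jun probe set, the 1 with all 4 KO pancreata below wildtype at E14.5, overlapped wildtype under quantile normalization, which gave 0. The share of all probe sets under that scaling was not computed.

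Of 24 log2 fold changes, 12 at each day, 6 changed sign in some alternative, each to 0.15 or less in size and none of them called. The first Egr2 probe set at E14.5, at -0.02, was 0.03 under quantile normalization and 0.03 with array weights, and -0.11 to 0.07 on leaving out 1 array. Ier2 at E14.5, at -0.02, was 0.0039 under quantile normalization and -0.15 to 0.11 on leaving out 1 array. Leaving out 1 array moved Egr1 at E14.5 between -0.05 and 0.16, Fos at E16.5 between -0.15 and 0.71, Atf3 between -0.08 and 0.16 and Nr4a1 between -0.03 and 0.21. With the probe sets of a gene averaged, the median of the heat shock list at E14.5 became -0.003 and that of the upstream list -0.02. The causes were not tested. A planned exclusion of probe sets of low signal was not run, since ratios hold no level. No paired analysis was possible because wildtype and KO share no replicate numbers.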
